A study of Mus musculus with 18 samples.

Results

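The ovaries of 7-day-old F1 females whose mothers had eaten a high-methionine diet were compared with the ovaries of F1 females of mothers on the control diet. The members were chosen by label alone: all 6 postnatal day 7 (Pd7) libraries out of 18 in the series, 3 from the F1-HHcy group and 3 from the F1-Control group. HHcy stands for hyperhomocysteinemia, a raised blood level of homocysteine, the sulfur amino acid left when methionine has given away its methyl group. The dams were wild-type C57BL/6J mice, and those of the F1-HHcy group ate feed with 3% methionine before mating, through gestation and through lactation, while the males that they mated with ate normal feed. The F1 females were not treated themselves, so every exposure reached them through the mother. Each library holds poly-A RNA of whole ovary, read with a stranded kit, and all 6 carry the label of batch 1, which they share with the 6 libraries of postnatal day 3 (Pd3). The sources used here do not say whether a library is 1 pup or several, or which pups shared a litter. They also disagree on how long the dams were fed before mating.

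In the first days of life the germ cell clusters of the mouse ovary break apart and each oocyte is enclosed by flat pregranulosa cells, which makes the pool of primordial follicles. Some follicles start to grow at once: the oocyte enlarges and builds its coat and its stores of maternal proteins, the granulosa cells become cuboidal and divide, and interstitial cells around the follicle acquire the enzymes of androgen synthesis. Transcription factors such as SOHLH1, FIGLA, NOBOX and LHX8 act in the oocytes of the resting and earliest growing follicles, and the synaptonemal complex genes belong to meiotic prophase, in which mouse oocytes arrest at the diplotene stage around birth. Because each library is whole ovary, fewer cells of a type and less RNA per cell of that type cannot be told apart in any result here.

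The values were taken as FPKM, fragments scaled to gene length and library size, and tests were made on log2(FPKM + 1). The 6 libraries held 33630304 to 37059050 fragments. The first principal component of the 500 most variable genes took 81.1% of the variance and separated the diets, with the F1-HHcy libraries at 16.69 to 19.08. F1-Control replicate 3 lay at -6.17, nearer to the F1-HHcy libraries than F1-Control replicates 1 and 2 at -22.89 and -24.57. Library pairs of the same diet correlated at 0.971 to 0.994 and pairs of different diets at 0.9215 to 0.9709. F1-Control replicate 1 also stood apart for red cell genes, described with the other cell types.

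**Figure D1:**
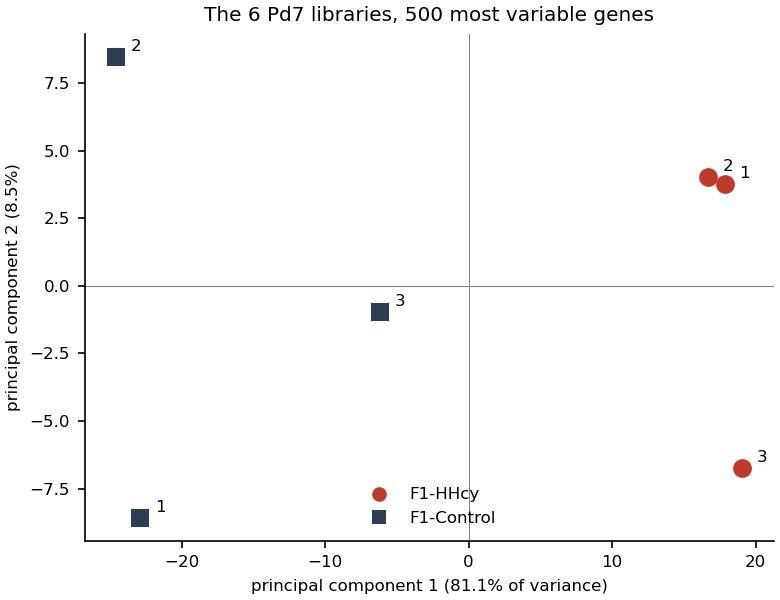
The 6 Pd7 libraries on the first and second principal components of their 500 most variable genes, on log2(FPKM + 1). Circles are F1-HHcy and squares F1-Control, and the digit is the replicate. The F1-HHcy libraries sit together at the right, and F1-Control replicate 3 lies between them and the other two F1-Control libraries on the first axis.

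Of 13299 genes tested, 782 were higher in F1-HHcy (5.88%) and 795 lower (5.98%) at a Benjamini-Hochberg adjusted p under 0.05 in limma, and the median log2 fold change of all genes was -0.0015. The values of all 3 F1-HHcy libraries lay above all 3 F1-Control libraries for 19.5% of the genes tested, and below all 3 for 19.5%. With 1 library left out in turn, in the order F1-HHcy replicates 1, 2 and 3 and F1-Control replicates 1, 2 and 3, the genes higher numbered 237, 284, 307, 561, 391 and 944 and the genes lower 256, 297, 421, 398, 334 and 901. The same order is used for each list of 6 counts that follows, and a gene too low to test without a library counts there as not called. Below, a gene "rose" or "fell" only where it passed this test, a value given as a fold change is a log2 difference F1-HHcy over F1-Control with its standard error, and an adjusted p is that of limma over all genes tested.

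The largest rise was that of Cyp17a1, the enzyme that turns progestins into androgens. It read 169, 175 and 64.3 FPKM in the 3 F1-HHcy libraries and 0.837, 0.599 and 9.03 in the 3 F1-Control libraries, a fold change of 5.34 ± 0.63 (adjusted p = 0.0025). The groups did not overlap, with F1-Control replicate 3 highest of its group and F1-HHcy replicate 3 lowest of its own. Next came Oog3, an oocyte-expressed gene of a large family of PRAME-like genes (4.17 ± 0.25), Cyp11a1, the enzyme that opens steroid synthesis (3.85 ± 0.52), the serine protease inhibitor gene Serpina5 (3.39 ± 0.33), Mgarp (3.37 ± 0.36) and the chemokine gene Cxcl14 (3.25 ± 0.34). Pramel29, Pramel25, Oog4 and the glutamine transporter gene Slc38a3 completed the 10 largest rises, at 2.91, 2.87, 2.86 and 2.83. Serpina5 was too low to test without any 1 of the F1-HHcy libraries. Among genes whose groups did not overlap, the largest falls were those of the lens crystallin gene Crygb (-3.26 ± 0.43), the oocyte transcription factor gene Sohlh1 (-2.66 ± 0.26), a pair of alpha globin genes, the synaptonemal complex gene Sycp3 (-2.52 ± 0.29), the beta globin gene Hbb-bt, the retinoic acid binding protein gene Crabp1 (-2.3 ± 0.38), the prostaglandin D synthase gene Ptgds (-2.27 ± 0.26), the meiotic cohesin gene Smc1b (-2.21 ± 0.21) and Gm41970 (-2.21 ± 0.33).

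Genes of the germ cell and of the resting oocyte had the lowest median of the lists with 10 or more tested genes. Of 22 such genes tested, 17 fell and 1 rose, with a median of -1.03. The 6 counts of genes that fell with a library left out were 8, 9, 14, 10, 9 and 18. Sohlh1, a helix-loop-helix factor of primordial oocytes, read 5.61, 7.33 and 6.52 in F1-HHcy and 51.7, 66.6 and 28.6 in F1-Control (adjusted p = 0.00121). Its partner Sohlh2 read 1.19, 0.988 and 0.919 against 8.17, 8.28 and 4.56 (-1.94 ± 0.21, adjusted p = 0.00138). For both genes every F1-HHcy library lay below every F1-Control library, and the lowest F1-Control value was that of replicate 3. Figla, which the oocyte needs to form primordial follicles, read 11.5, 9.9 and 9.55 against 50.9, 78.6 and 31.1, a fall of 2.17 on the log2 scale (SE 0.28, adjusted p = 0.0031). Other oocyte factors fell less far: Nobox by 1.18, Lhx8 by 0.97 and Tbpl2, a germ cell TATA-binding protein, by 1.43. Kit, the receptor through which the oocyte receives the granulosa cell's Kit ligand, read 15.3, 15.3 and 23.1 against 42, 27.4 and 25.7 and fell by 0.78. The call of each of those 4 genes was lost when at least 1 library was left out, with the largest adjusted p for Tbpl2 at 0.0533 without F1-Control replicate 2, for Nobox at 0.0623 without the same library, for Lhx8 at 0.0924 without F1-HHcy replicate 2 and for Kit at 0.165 without F1-HHcy replicate 1. Taf4b, a subunit of the general transcription machinery with a role in oocytes, was the 1 gene of the list that rose (0.60 ± 0.17, adjusted p = 0.0492), and its call was lost with 5 of the 6 libraries left out.

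Genes of the piRNA pathway, which silences transposons in germ cells, stood in the same list. Mov10l1, an RNA helicase of piRNA production, read 2.47, 3.09 and 2.18 in F1-HHcy and 17.2, 17.1 and 11.8 in F1-Control (-2.18 ± 0.18, adjusted p = 0.00102). Mael read 14.8, 12.3 and 11.2 against 58.2, 90 and 37.2 (-2.11 ± 0.27) and the PIWI gene Piwil2 2.12, 2.54 and 2.46 against 12.9, 12.3 and 7.03 (-1.76 ± 0.21). These 3 calls held with every library left out, whereas those of Gtsf1 (-1.09) and Tdrd1 (-0.90) did not, with the adjusted p of Gtsf1 reaching 0.114 without F1-HHcy replicate 3 and that of Tdrd1 reaching 0.0509 when F1-HHcy replicate 1 was omitted. Ddx4, the helicase that marks germ cells at all stages, read 6.84, 5.85 and 6.95 against 16.2, 18.4 and 13.2, a fall of 1.16 (adjusted p = 0.00382). Dazl, an RNA-binding protein of germ cells, read 12.8, 11.2 and 12.5 against 22.8, 20.1 and 14.1 and did not pass (-0.58 ± 0.18, adjusted p = 0.0638), although its groups did not overlap.

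None of the meiotic prophase genes rose. Of 16 tested, 8 fell, with a median of -0.70, and the counts with a library left out were 5, 6, 6, 5, 6 and 8. Sycp3, an axis protein of the synaptonemal complex, read 13.2, 12 and 14.2 in F1-HHcy and 103, 112 and 44.9 in F1-Control (adjusted p = 0.00225). Smc1b, a cohesin subunit that holds sister chromatids in oocytes, read 6.44, 6.53 and 5.6 against 35.1, 41.5 and 22.9 (adjusted p = 0.00113). Both F1-HHcy ranges were narrow and lay well under the lowest F1-Control library, which was replicate 3. Syce1 (-2.14 ± 0.30) and Sycp1 (-1.57 ± 0.21) also fell and passed with every library left out. Tex11 (-1.45 ± 0.25) fell too, and was too low to test without any 1 of the F1-Control libraries. Dmc1, the meiotic recombinase, read 1.92, 1.3 and 0.812 against 2.59, 2.01 and 1.77 with overlapping groups (adjusted p = 0.172). Another 9 genes of this list, among them Stra8 and Spo11, which act at the start of meiosis, were too low to test.

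**Figure D2:**
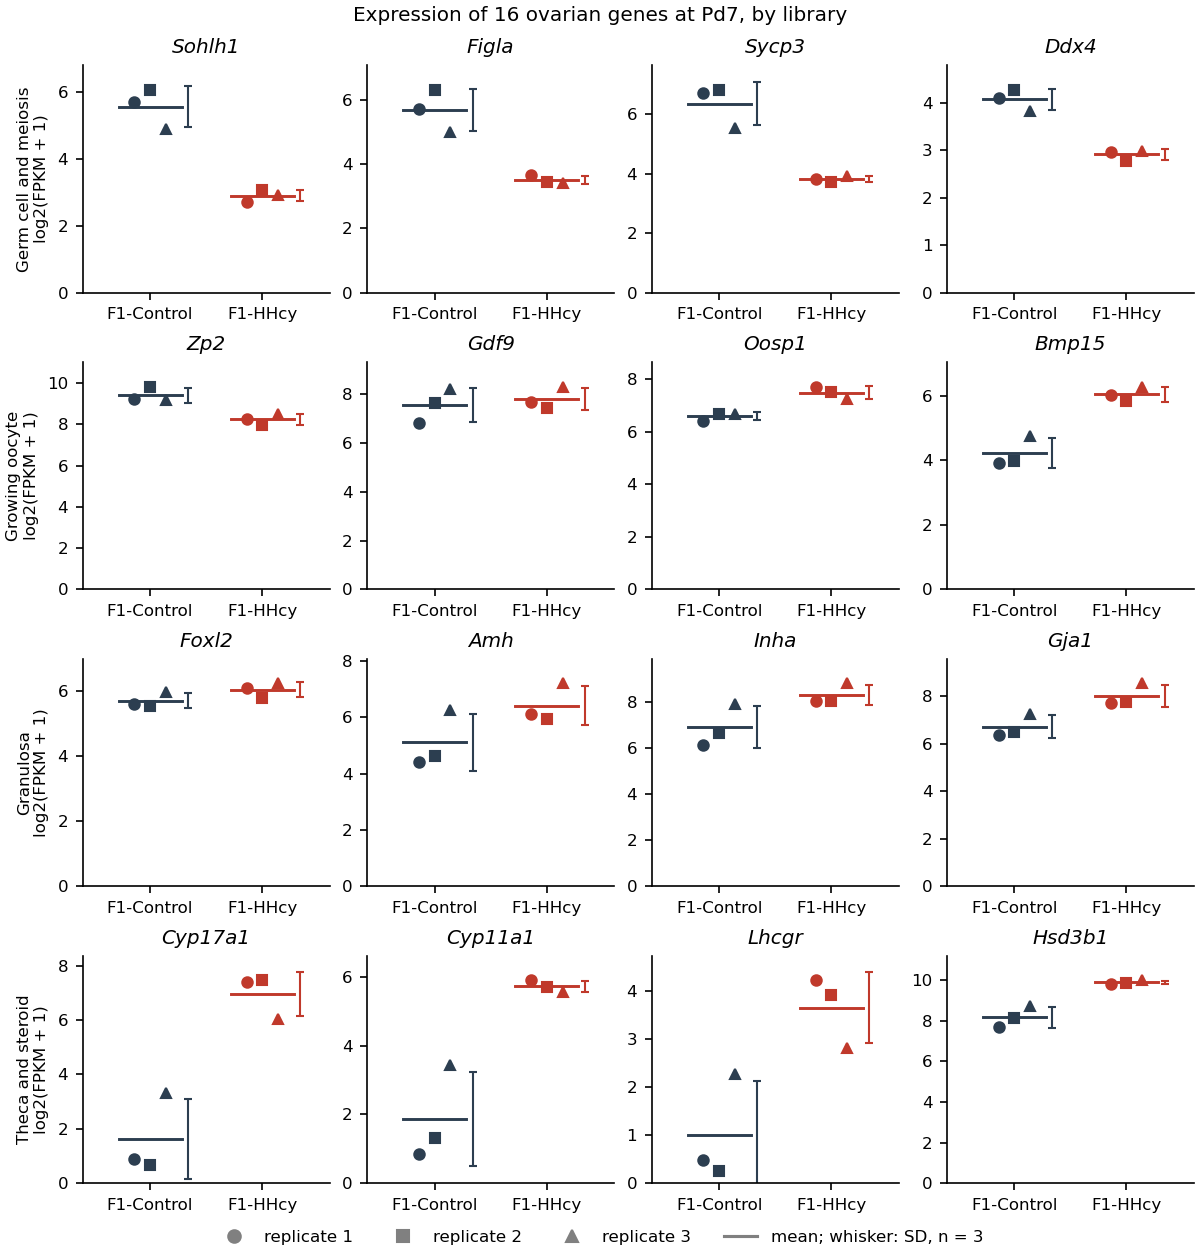
log2(FPKM + 1) of 16 genes in the 6 Pd7 libraries, by role. Symbols mark the replicate, the horizontal bar the mean and the whisker its SD (n = 3), with a separate vertical axis from 0 for each gene. Sohlh1, Figla, Sycp3 and Ddx4 lie lower in F1-HHcy, Bmp15, Oosp1 and the steroid genes higher, and Gdf9, Foxl2 and Amh overlap.

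The promoters of these genes are shown because a short motif recurs among the germ cell and meiotic genes that fell. In the RefSeq promoter table (build GRCm38.p6), the 250 bases before the start of each gene were searched on both strands for 9 motifs. These were the E box forms CACGTG and then CAGCTG and lastly CATTTG, the homeobox forms TAATTA along with TAATTG, the CCAAT box, the cyclic AMP response element TGACGTCA, the nuclear receptor form AAGGTCA and the GLI form TGGGTGGTC. None of the 9 is contained in another. CACGTG, a palindrome of the E box kind, was picked for display after the matches of all 9 were seen. Some genes have several promoters in the table, and a gene was counted where any of them held the motif. Of the 25 germ cell and meiotic genes that fell, 22 had a promoter in the table, and 10 of these held CACGTG (45.5%). It was held by 2 of 11 such genes that were tested and did not fall (18.2%), by 9.89% of the 10642 tested genes with a promoter and by 6.86% of all 27025 genes in the table, and, counted by promoter, by 6.02% of 32851. The other 8 motifs matched 0 to 7 of the same 22 genes, with CCAAT in 7 (31.8%, against 40.4% of tested genes), CAGCTG in 3 and each of the rest in 0. The theca and steroid synthesis genes that rose were searched for the same 9 motifs. Of 11 such genes with a promoter there, CACGTG matched 0, CCAAT 4, CATTTG 2 (18.2%, against 9.47% of tested genes) and each other motif 0 or 1. The granulosa and growing oocyte lists were searched for CACGTG alone. It was held by 1 of 8 called granulosa genes with a promoter. Of the growing oocyte genes with a promoter, 0 of 10 called and 2 of 24 tested held it. No test was made of these shares, and a match is no evidence of binding. Below are the 250 bases before the start of 4 genes that fell, 5′ to 3′ on the gene's strand, with each CACGTG in capitals: Sohlh1, with 3 matches, lies on the minus strand at chr2:25847249-25847498, Sycp3, with 2, on the plus strand at chr10:88459337-88459586, Mov10l1, with 1, on the plus strand at chr15:88982744-88982993, and Ddx4, with 1, on the minus strand at chr13:112652311-112652560.
Sohlh1: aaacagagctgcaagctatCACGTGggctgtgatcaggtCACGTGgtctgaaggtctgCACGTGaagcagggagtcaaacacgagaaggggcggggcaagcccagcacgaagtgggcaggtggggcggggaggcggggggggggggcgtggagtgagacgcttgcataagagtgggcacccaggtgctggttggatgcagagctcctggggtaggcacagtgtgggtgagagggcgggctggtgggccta
Sycp3: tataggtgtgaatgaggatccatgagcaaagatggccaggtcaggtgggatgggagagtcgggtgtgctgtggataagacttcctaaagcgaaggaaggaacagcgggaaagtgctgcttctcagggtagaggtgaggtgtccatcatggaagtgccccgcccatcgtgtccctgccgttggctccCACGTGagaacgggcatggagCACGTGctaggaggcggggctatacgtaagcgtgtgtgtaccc
Mov10l1: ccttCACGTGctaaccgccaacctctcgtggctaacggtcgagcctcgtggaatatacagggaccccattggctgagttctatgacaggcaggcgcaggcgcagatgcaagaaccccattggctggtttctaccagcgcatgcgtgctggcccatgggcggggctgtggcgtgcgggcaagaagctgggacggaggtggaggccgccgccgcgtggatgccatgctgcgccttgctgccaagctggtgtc
Ddx4: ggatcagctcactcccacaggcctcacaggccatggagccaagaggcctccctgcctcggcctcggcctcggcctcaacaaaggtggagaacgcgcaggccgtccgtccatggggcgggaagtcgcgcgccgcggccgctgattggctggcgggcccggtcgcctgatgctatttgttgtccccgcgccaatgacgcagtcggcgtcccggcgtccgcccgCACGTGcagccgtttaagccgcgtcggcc

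Products of the growing oocyte moved in both directions. Of 33 tested, 9 rose and 4 fell, with a median of 0.24 that ran from -0.12 without F1-Control replicate 1 to 0.35 without F1-HHcy replicate 2. The rises numbered 4, 7, 5, 6, 7 and 13 and the falls 0, 0, 4, 3, 1 and 5 with a library left out. Bmp15, a growth factor that the oocyte sends to the granulosa cells, read 64.1, 56.1 and 77.3 in F1-HHcy and 14.3, 14.8 and 26.3 in F1-Control (1.82 ± 0.23, adjusted p = 0.003). Its sister factor Gdf9 read 198, 168 and 312 against 111, 195 and 294, with overlapping groups (adjusted p = 0.665). Oosp3, of the oocyte-secreted protein family, rose from 10.7, 14.1 and 18.1 to 37.7, 35.6 and 28.6 (1.21 ± 0.19), and the inflammasome-like genes Nlrp9b and Nlrp2 rose by 1.58 and 1.08. The 4 falls were those of zona pellucida gene Zp2, maternal effect genes Ooep and Padi6 and Dppa3, which guards maternal methylation in the zygote. Zp2 read 301, 250.4 and 359 against 591, 906 and 578 (-1.17 ± 0.23, adjusted p = 0.0142). Zp3 read 228, 187 and 346 against 354, 689 and 479 and Zp1 60, 50.9 and 121 against 63.3, 109.8 and 113, and neither passed (adjusted p = 0.0526 and 0.474). None of the 4 falls held with every library left out, and the largest adjusted p values were 0.069 for Zp2, 0.125 for Ooep and 0.108 for Padi6, all without an F1-HHcy library, and 0.0952 for Dppa3, without F1-HHcy replicate 3.

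Granulosa cell genes were more often higher. Of 25 tested, 8 rose and 1 fell, with a median of 0.72, and with a library left out the rises numbered 5, 5, 3, 3, 3 and 14. Inhba, which encodes the beta A subunit of activin and inhibin, read 4.75, 4.55 and 3.69 in F1-HHcy and 1.11, 0.947 and 0.722 in F1-Control (1.47 ± 0.16, adjusted p = 0.00138). Esr2, the estrogen receptor of granulosa cells, read 48.8, 45.2 and 60.9 against 16.7, 15.1 and 27.8 (1.37 ± 0.22), and the BMP receptor gene Bmpr1b 8.82, 8.67 and 12.5 against 4.32, 3.52 and 5.27 (1.03 ± 0.19). In all 3 the groups were apart and the call held with every library left out. The gap junction gene Gja1 (1.3), the nuclear receptor gene Nr5a2 (1.52), Inha (1.4) and Ihh (1.73) rose too, but each call was lost without F1-Control replicate 2, at adjusted p values of 0.0795, 0.138, 0.164 and 0.129. Other omissions lost them as well: in the same order, the calls were lost in 3, 4, 5 and 4 of the 6 fits with a library left out. Gatm, the first enzyme of creatine synthesis, was the 1 gene that fell, from 148, 113 and 116 to 71.1, 70.9 and 47.3 (-1.0 ± 0.20). The granulosa identity gene Foxl2 read 68, 54.9 and 74.7 against 47.7, 45.7 and 61.9 and Amh, the hormone of growing follicles, 68, 60.5 and 146 against 20.5, 23.8 and 76.1. Both overlapped and did not pass (adjusted p = 0.202 and 0.0926), with replicate 3 highest in each group for both genes.

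Theca and interstitial cell markers had the highest median of the lists with 10 or more tested genes. Of 17 tested, 12 rose and none fell, all 17 had a fold change above 0, and the median was 1.01. With a library left out, 7, 8, 8, 10, 6 and 12 rose. Cyp11a1, which cuts the side chain of cholesterol, read 58.4, 50.9 and 46 in F1-HHcy and 0.813, 1.5 and 9.72 in F1-Control (adjusted p = 0.00363). Mgarp, a mitochondrial protein of steroid-making cells, read 19.3, 15.4 and 40.3 against 0.615, 1.1 and 2.66 (adjusted p = 0.00138). Lhcgr, the receptor for luteinizing hormone, read 17.6, 14.2 and 6.06 against 0.407, 0.202 and 3.86 (2.64 ± 0.51, adjusted p = 0.0119). Across these 3 genes F1-Control replicate 3 was the highest of its group. Without F1-Control replicate 2 the Lhcgr call was lost (adjusted p = 0.0671), as was that of Insl3, a hormone of theca and Leydig cells (0.07), which read 4.54, 4.26 and 1.06 against 0.0477, 0.0964 and 0.466. Insl3 was too low to test without any 1 of the F1-HHcy libraries. Fgl2 (1.2 ± 0.17) and the hedgehog receptor gene Ptch1 (1.01 ± 0.13) rose and held with every library left out. Aldh1a1 and the stromal factor gene Tcf21 read 170.5, 159 and 186 against 131, 166 and 95.7 and 209.5, 224 and 122 against 123, 129 and 163, and did not pass.

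Steroid synthesis genes, 5 of which are also in the theca list, gave 8 rises and 1 fall among 20 tested, with a median of 0.69 and with 6, 6, 7, 7, 5 and 8 rises when a library was left out. Hsd3b1, the dehydrogenase that makes progesterone, was the most abundant, at 897, 935 and 1009 against 205, 276 and 420.5 (1.71 ± 0.26, adjusted p = 0.00558). Its near relative Hsd3b6 went the other way, from 4.6, 7.22 and 4.14 to 1.74, 0.891 and 1.21 (-1.46 ± 0.22, adjusted p = 0.00517); reads of close relatives such as these may be split between them. Fdx1, which carries electrons to the mitochondrial steroid enzymes, read 22.2, 19.4 and 14.6 against 6.32, 7.3 and 8.56 (1.22 ± 0.18), and Scarb1, the receptor for HDL cholesterol, 30.4, 33.8 and 39 against 17.2, 13.6 and 19.6 (1.0 ± 0.17). Star, which moves cholesterol into mitochondria, rose by 0.84 (adjusted p = 0.0314), and without F1-HHcy replicate 1 its adjusted p was 0.123. The Star call was lost in 4 of the 6 fits with a library left out. Cyp19a1, the aromatase that makes estrogens, read 4.97, 5.1 and 2.14 against 1.357, 1.51 and 3.33 and did not pass (adjusted p = 0.137). The factor NR5A1, which drives steroid enzyme genes, read 29.1, 29.4 and 41.5 against 25.1, 24.1 and 26.8 for its gene (0.36 ± 0.16, adjusted p = 0.158). Adrenal cortex is a neighbouring source of the same enzymes, and its own markers were low: Cyp11b1 was at 0 to 0.0472 in the 6 libraries and Cyp21a1 at 0 to 1.35, with the highest value of each in F1-Control replicate 2. Of 5 adrenal list genes tested, Hao2 (1.95 ± 0.18), Mrap (1.2 ± 0.25) and Dab2 (0.95 ± 0.21) rose (1, 2, 2, 2, 2 and 3 rises with a library left out), and their part in the steroid result was not tested.

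In the hedgehog pathway, ligands made by granulosa cells act on the cells around the follicle. Of 17 hedgehog genes tested, 4 rose and 1 fell, with a median of 0.25, and with a library left out 2, 2, 1, 1, 1 and 4 rose. All 4 that rose were already counted above, Ptch1, Gli1 and Hhip in the theca list and Ihh in the granulosa list. The ligand gene Ihh read 4.04, 5.04 and 8.67 in F1-HHcy and 0.312, 0.371 and 3.47 in F1-Control, where replicate 3 was the highest. The receptor and target gene Ptch1 read 34.3, 35 and 35.7 against 17.4, 15 and 18.5 (adjusted p = 0.00336). Gli1, a transcription factor and target of the pathway, read 25.1, 25 and 22 against 17.2, 13.5 and 17.1 (0.57 ± 0.15), and Hhip, an inhibitor that is also a target, 6.3, 5.67 and 8.7 against 1.04, 0.917 and 4.19 (1.51 ± 0.34). Gas1, a coreceptor, fell by 0.73. The other ligand gene of the ovary, Dhh, read 4.16, 3.32 and 6.32 against 2.14, 3.04 and 4.79 and the transducer Smo 40.7, 42.5 and 45.7 against 41.2, 36.2 and 44.1, both with overlapping groups. Of the 5 called genes only Ptch1 held with every library left out.

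Receptors and converting enzymes for sex steroids gave 4 rises and 2 falls among 13 tested (median 0.24; 2, 3, 3, 3, 3 and 5 rises with a library left out). Esr1, the estrogen receptor of stroma and surface epithelium, fell from 17.8, 13.6 and 10.6 to 7.67, 7.57 and 7.49 (-0.78 ± 0.18, adjusted p = 0.0253), while Esr2 rose. Its call was lost with 5 of the 6 libraries left out. Akr1c18, which inactivates progesterone, read 4.43, 4.86 and 6.62 against 11.8, 18.3 and 10.6 (-1.19 ± 0.22), and Hsd17b11 54.9, 61 and 45 against 26.5, 26.8 and 30.2 (0.92 ± 0.15).

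Cyclic AMP genes, which carry the gonadotropin signal, gave 6 rises and 1 fall among 28 tested, with a median of 0.12 and with 4, 2, 2, 5, 3 and 6 rises when a library was left out. Prkar2b, a regulatory subunit of protein kinase A, read 128, 114 and 135 in F1-HHcy and 33.8, 29.5 and 63.9 in F1-Control (1.62 ± 0.25, adjusted p = 0.00642). Adcy7, an adenylate cyclase, read 20.2, 22 and 19.3 against 7.07, 5.63 and 9.63 (1.37 ± 0.18). Both were apart between diets and held with every library left out, as did the fall of Pkig, an inhibitor of protein kinase A, from 51.8, 70.1 and 42.8 to 25.4, 23.8 and 28.6 (-1.03 ± 0.18). The cyclase genes Adcy5 and Adcy9 and the phosphodiesterase gene Pde7b rose by 1.27, 0.81 and 1.1, and each lost its call when F1-HHcy replicate 2 or F1-HHcy replicate 3 was left out.

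Among 28 genes of the PI3K, AKT, mTOR and FOXO pathway, which governs the waking of primordial follicles, 2 rose and 1 fell. Their median was 0.10, with 2, 1, 0, 0, 0 and 2 rises when a library was left out. The shares called are near those of all genes tested (5.88% higher and 5.98% lower). Foxo1, the FOXO factor of granulosa cells, read 24, 25.4 and 55.9 against 9.28, 8.05 and 17 (1.5 ± 0.34, adjusted p = 0.0219), and without F1-Control replicate 2 its adjusted p was 0.0953. Pik3cd, a catalytic subunit, read 11.8, 15.8 and 18.8 against 6.78, 6.21 and 9.75, and Pik3r3, a regulatory one, 5.85, 5.26 and 6.7 against 13.8, 12.1 and 9.52. Neither call held with every library left out. Follicle activation ligands and receptors gave 7 rises and 2 falls among 30 (median 0.25, and 3, 3, 4, 6, 6 and 8 rises with a library left out). The rises include Bmp15 and Bmpr1b, already counted in the growing oocyte and granulosa lists. Ccn2, a matrix protein and target of Hippo signaling, read 51.2, 52.7 and 53.8 against 11.8, 7.21 and 15 (2.17 ± 0.22, adjusted p = 0.00129), with all 3 F1-HHcy values close to each other. Kitl, the ligand of the Kit receptor, read 51.5, 40.9 and 44.3 against 40, 34.9 and 37.8 and did not pass (adjusted p = 0.223). Igf1r (0.95), Lifr (0.82), Pdgfrb (0.86) and Npr2 (0.79) rose, and each lost its call without at least F1-HHcy replicate 1 or 2.

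The maternal diet supplies methionine, so its own metabolism was read in the offspring ovary. Of 18 methionine cycle and transsulfuration genes tested, 1 rose and 2 fell, with a median of -0.12. For comparison, 5.88% of all genes tested rose and 5.98% fell. Cbs, which joins homocysteine to serine in the first step of transsulfuration, read 10.2, 12.8 and 13.1 in F1-HHcy and 0.357, 0.0618 and 3.29 in F1-Control (2.82 ± 0.43, adjusted p = 0.00557). The groups were apart, F1-Control replicate 3 was again the highest of its group, and the call held with every library left out. Cth, the next enzyme of that route, read 1.26, 1.8 and 2.14 against 2.08, 1.69 and 1.35, with overlapping groups (adjusted p = 0.983). Gnmt and Pemt, methyltransferases that use S-adenosylmethionine, fell by 0.58 and 0.69 with adjusted p values of 0.0495 and 0.047. The Gnmt call was lost with any of the 6 libraries left out and the Pemt call with 5 of the 6. Their largest adjusted p values were 0.137 and 0.192, both without F1-HHcy replicate 1. The remethylation genes Mtr and Mtrr read 3.57, 3.47 and 3.72 against 4.89, 2.87 and 3.97 and 8.88, 8.61 and 8.44 against 5.72, 5.73 and 7.86, and neither passed. Mat2a, which makes S-adenosylmethionine in most tissues, read 73.9, 71.2 and 74.4 against 75.5, 56.2 and 80.9 (adjusted p = 0.815). Bhmt, the betaine route of the liver, was at 0.191 or less in every library.

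None of 18 folate one-carbon genes was called in limma or limma-voom (median -0.09), and 4 had an unadjusted p under 0.05, against 4189 of all 13299 genes. Of 13 genes for DNA methylation, 1 rose and none fell (median 0.30), against 5.88% higher and 5.98% lower of all genes tested. The gene that rose was Dnmt3l, the cofactor of de novo methylation in oocytes. It read 2.73, 2.24 and 5.45 against 0.493, 0.731 and 1.76 (1.15 ± 0.29, adjusted p = 0.0347), with an adjusted p of 0.119 without F1-Control replicate 2. The Dnmt3l call was lost in 4 of the 6 fits with a library left out. Dnmt1, the maintenance enzyme, read 74.8, 72.3 and 124 against 54.4, 62.8 and 93.5, and Dnmt3a 6.98, 6.83 and 6.66 against 7.58, 3.7 and 5.39, with overlapping groups in both. Tet3, an enzyme that oxidizes methylcytosine, read 10.6, 10.3 and 10.9 against 7.65, 3.81 and 7.15 and did not pass (0.73 ± 0.22, adjusted p = 0.0547). In the amino acid response and endoplasmic reticulum stress list, the amino acid transporter gene Slc7a5 (0.77) and the lipoprotein receptor gene Vldlr (0.98) rose and the serine synthesis gene Phgdh (-0.81) fell among 21 tested (median 0.05). The calls of these 3 were lost without some library, with largest adjusted p values of 0.0834, 0.122 and 0.0656. Such a small number stands beside 5.88% higher and 5.98% lower of all genes tested.

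Proliferation genes gave no rise and 5 falls among 30 tested, with a median of -0.34. The falls numbered 0, 1, 8, 1, 3 and 3 with a library left out. Cyclin genes Ccnd1, Ccnd2 and Ccnd3 fell by 1.04, 0.71 and 0.79, and the ribonucleotide reductase genes Rrm1 and Rrm2 by 0.62 and 0.69. Ccnd1 read 7.95, 7.88 and 10.7 against 25.6, 15.8 and 17.1 (adjusted p = 0.0119), with groups apart. In the cholesterol synthesis and uptake list, Scarb1 and the exporter gene Abca1 (0.70) rose and Insig1, a brake on cholesterol synthesis, fell (-0.83) among 27 tested. The list's median was -0.09, with 1, 1, 2, 2, 2 and 3 rises and 0, 0, 2, 2, 1 and 1 falls when a library was left out. Both shares are near those of all genes tested (5.88% higher and 5.98% lower). Mitochondrially encoded genes showed 1 fall among 13, that of ND3 (-1.08, lost without F1-Control replicate 2 at an adjusted p of 0.0728). They took 3.23% to 5.05% of fragments in F1-HHcy and 4.16% to 5.65% in F1-Control. No immediate early gene was called in limma or limma-voom in 16 tested, with 3 at an unadjusted p under 0.05 (median 0.49, and -0.07 without F1-HHcy replicate 3), and the summed level of that list was 143, 109 and 567 in F1-HHcy and 191, 128 and 118 in F1-Control, with F1-HHcy replicate 3 far above the rest.

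Few matrix genes were called, in shares near those of all genes tested (5.88% higher and 5.98% lower). Of 32 collagen genes tested, 3 rose and 1 fell (median 0.29, and 0.06 without F1-Control replicate 2), and of 15 laminin and basement membrane genes 1 rose and 1 fell (median 0.19, and 0.03 without the same library). Lamc3, a laminin gamma chain, read 20.1, 20.1 and 22.6 in F1-HHcy and 3.67, 2.93 and 8.34 in F1-Control (1.98 ± 0.28, adjusted p = 0.00403), and its call held with every library left out. Col11a1 (1.25 ± 0.20) and Col6a4 (1.55 ± 0.26) rose. Collagen, laminin and cyclase genes are long, and fold changes moved with gene length: with the genes tested ordered by length and cut into 4 equal bins, the median was -0.212 in the shortest bin, -0.068 and 0.05 in the middle bins and 0.175 in the longest. Without F1-Control replicate 2 the medians were -0.115 and 0.043 in the shortest and longest bins. Genes that rose had a median length of 3.42 kilobases, genes that fell 2.15 and all genes tested 3.47. The part of gene length in the matrix and cyclic AMP results, and in the lists that fell, was not tested.

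**Figure D3:**
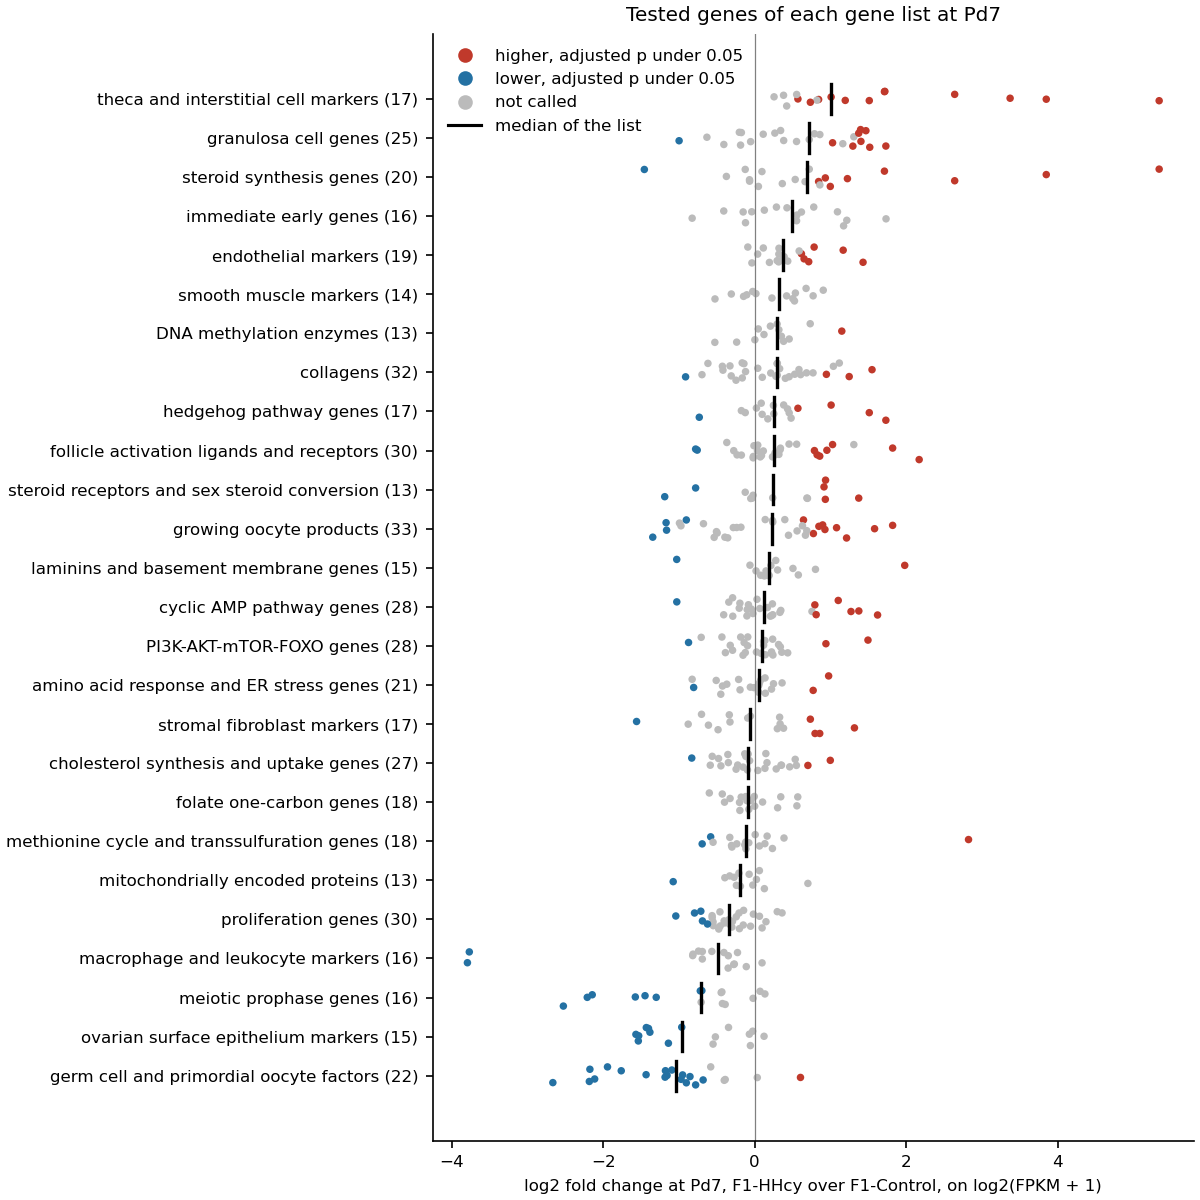
log2 fold change at Pd7 of each tested gene in the lists with 10 or more tested genes, with the number tested in brackets, sorted by median. Red and blue points are genes called higher or lower in limma, grey points are not called, and the black bar is the list's median, from -1.03 for germ cell and primordial oocyte factors to 1.01 for theca and interstitial cell markers.

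Genes of other cell types of the ovary and its surroundings also differed. The surface epithelium list fell: of 15 tested 8 were lower, none higher, with a median of -0.96 and 6, 7, 5, 7, 6 and 8 falls when a library was left out. Krt8, a keratin, read 33.4, 41.7 and 34.8 against 99.4, 129 and 70.3 (-1.38 ± 0.21), and Aldh1a2, a retinoic acid enzyme, 46.5, 61.2 and 37.9 against 144, 134 and 107 (-1.4 ± 0.20). The summed level of the list was 512, 636 and 371 FPKM in F1-HHcy and 1122, 1162 and 775 in F1-Control, with no overlap. Of 19 endothelial genes, 6 rose and none fell (median 0.38; 2, 3, 2, 4, 3 and 5 rises with a library left out), and the lymphatic genes Flt4 (1.43 ± 0.20) and Lyve1 (1.17 ± 0.21) held with every library left out. Among 17 stromal fibroblast genes, 4 rose and 1 fell, with 1, 1, 2, 3, 2 and 4 rises and 1, 1, 1, 1, 1 and 3 falls when a library was left out. Their median was -0.06, fell to -0.19 when F1-HHcy replicate 2 was omitted and turned to 0.17 when replicate 3 of the same diet was. Thy1 read 8.67, 7.37 and 9.98 against 3.04, 2.28 and 3.34 (1.32 ± 0.17) and Postn 20.1, 31.3 and 17.3 against 69.6, 82.4 and 53.1 (-1.56 ± 0.23), and both calls held with every library left out. No smooth muscle gene was called in limma or limma-voom in 14 tested, with 5 at an unadjusted p under 0.05 (median 0.33), but 5 were without F1-Control replicate 3.

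Blood cell genes varied with the F1-Control libraries. The red cell list summed to 6011, 1562 and 928 FPKM in F1-Control replicates 1 to 3 and to 288, 505 and 432 in F1-HHcy. The hemoglobin genes and Alas2 made up 5 falls among 6 tested (0, 2, 0, 5, 0 and 6 falls with a library left out). Slc4a1, the red cell anion exchanger, was at 31.1 in F1-Control replicate 1 and at 0.317 or less in the other 5 libraries. The leukocyte list gave 2 falls among 16, the neutrophil genes S100a8 and S100a9 (0, 0, 2, 0, 3 and 6 falls with a library left out), and limma-voom called none of the 16, of which 8 had an unadjusted p under 0.05 in limma. S100a8 read 0.374, 0.0759 and 6.95 against 119, 5.77 and 35.5 (adjusted p = 0.0361), with overlapping groups, and without F1-HHcy replicate 2 the adjusted p was 0.1. The pan-leukocyte gene Ptprc was at 0.907 or less in every library. Of 7 adipocyte genes tested, 4 rose, and with a library left out 1, 2, 1, 2, 2 and 3 did. Their median was 0.52 and reached 1.17 without F1-Control replicate 3. Plin1, the coat of fat droplets, read 4.84, 5.6 and 5.59 against 0.773, 0.74 and 1.75 (1.64 ± 0.20) and Cfd 3.59, 2.74 and 8.14 against 0.152, 0.276 and 0.889 (1.94 ± 0.32, too low to test without any 1 of the F1-HHcy libraries), while Lep, a hormone of fat cells, was at 0.0344 or less. In the oviduct list 2 of 7 genes fell, Pax8 (-1.04) and Dnah9 (-0.55), with 1, 0, 0, 1, 1 and 1 falls when a library was left out. Dnah9 was too low to test without any 1 of the F1-Control libraries. Its call was lost in all 3 fits in which it was tested, with a largest adjusted p of 0.159 in limma. Skeletal muscle genes gave no call in limma or limma-voom among 4 tested, with 2 at an unadjusted p under 0.05, and the kidney list 1 fall among 2, that of Cdh16 (-1.05 ± 0.15, too low to test without any 1 of the F1-Control libraries), with Umod at 0.319 or less. The part of these cell types in the germ cell, granulosa and theca results was not tested.

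**Figure D4:**
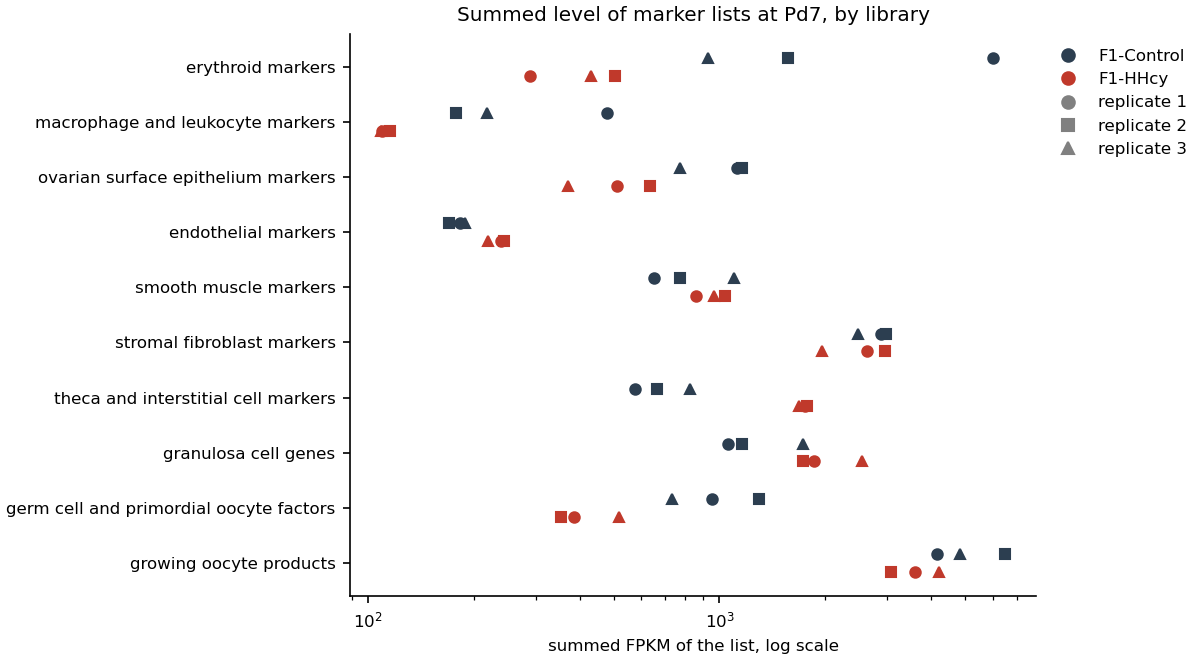
Summed FPKM of 10 gene lists in each Pd7 library, on a log scale. Red symbols are F1-HHcy, dark symbols F1-Control, and the shape is the replicate. Theca markers lie higher in all 3 F1-HHcy libraries, surface epithelium, germ cell and red cell markers lower, and F1-Control replicate 1 has the highest red cell and leukocyte sums.

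The diet comparison at Pd7 was set against the same comparison at Pd3, with other animals on both diets, in a model of the 12 libraries of batch 1. Of 13998 genes tested, 72 had a diet effect at Pd7 that differed from that at Pd3 (0.514%, limma adjusted p under 0.05), 50 with a lower effect at Pd7 and 22 with a higher one. Leaving out 1 Pd7 library gave 11, 5, 52, 167, 36 and 55 such genes. In 44 of the 50 the estimate was above 0 at Pd3 and below 0 at Pd7, and in 18 of the 22 the reverse. Growing oocyte products made up 5 of the 50: Zp2, Zp3, Zar1, Npm2 and Nlrp14. Their list had a median of 1.59 at Pd3 and 0.24 at Pd7 over the same 33 genes. Zp2 read 301, 250.4 and 359 against 591, 906 and 578 at Pd7 and 488, 728 and 444 against 202, 226 and 321 at Pd3, so the order of the diets turned, with a difference of -2.31 (SE 0.35, adjusted p = 0.0192). The stromal genes Pdgfra and Mfap4 were the other list members with a lower effect at Pd7, and the mitochondrial gene ND6 had a higher one.

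No gene of the germ cell, meiotic, granulosa, theca, steroid synthesis or hedgehog lists passed the limma test of the difference between days. In that order, 8 of 22, 1 of 20, 6 of 25, 9 of 17, 7 of 20 and 3 of 17 had an unadjusted p under 0.05. The same held for 2347 of all 13998 genes tested. The germ cell list had a median of -1.03 at Pd7 and -0.81 at Pd3, the theca list 1.01 and 1.02. Cyp17a1 at Pd3 read 43.3, 1.06 and 0.552 in F1-HHcy and 0.787, 0.576 and 0.665 in F1-Control, with 1 F1-HHcy library far above the rest, and its effects of 5.34 at Pd7 and 1.64 at Pd3 were not shown to differ (adjusted p = 0.241).

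**Figure D5:**
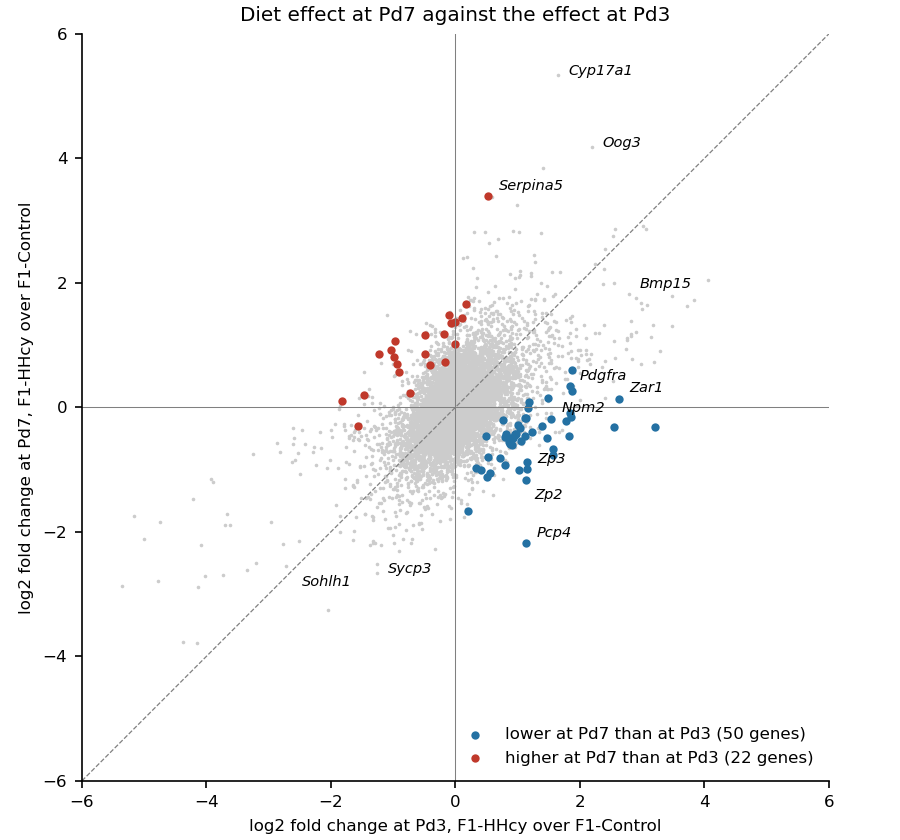
log2 fold change of each gene at Pd3 (horizontal) and at Pd7 (vertical), F1-HHcy over F1-Control, from 1 model of 12 libraries. Coloured points are the 72 genes whose effects differed between the days, 50 lower and 22 higher at Pd7, and the dashed line marks equal effects. Zp2, Zp3 and Pcp4 lie right of 0 and below 0, and Serpina5 lies above the line.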

How the data were processed

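Whole ovary RNA from 6 Pd7 samples (3 per diet) was analysed from 6 deposited tables, 1 per library. Per the submitters' processing notes, which give no order, FastQC 0.11.9, Trimmomatic 0.39, STAR 2.7.9a, featureCounts 2.0.1, Subread and DESeq2 1.36.0 were used with GRCm38 (mm10). The unit of the deposited values is not named by the authors. It was taken as FPKM, because 1 length per gene and 1 factor per library turned the deposited values into whole fragments for 27294 of 27294 genes above 0 in at least 3 libraries. That step cannot tell FPKM from another unit scaled by gene length and by library. Genes at 1 FPKM or more in at least 3 of the 6 libraries were tested with limma 3.58.1 (R 4.3.3, trended empirical Bayes) on log2(FPKM + 1), which understates changes of low genes, and called at a Benjamini-Hochberg adjusted p under 0.05. The scripts were tested on simulated data. Differences between Pd7 and Pd3 were fitted on 12 libraries, from 12 such tables. As libraries may share litters, p-values measure the spread between these libraries only, and an exact permutation test of 3 against 3 cannot go below 0.1. The comparison and its 32 gene lists were chosen with earlier results of these data known. Lists are described by counts and medians. Genes were named by rule: the 10 largest rises and falls without overlap, the most abundant and lowest-p members of each list, a few follicle and pathway genes that the study stained, blotted or centred on, and the lowest-p differences between days; other list members serve as examples, and some genes of the lists and of this rule are not reported here. Same-numbered libraries did not deviate together (correlations 0.06, -0.109 and 0.087), so the numbers were not taken as pairs. Promoter sequences came from RefSeq (GRCm38.p6). Alternatives were another pseudocount, filter, scaling, model, call rule and each library left out.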

Additional observations from a re-analysis of the deposited data

Results flagged for a closer look

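Among the genes named by rule, 9 had a diet effect at Pd7 that differed from that at Pd3 by a test of the difference itself (limma on 12 libraries, adjusted p under 0.05 over 13998 genes), and they are given here as values without an explanation. The difference is the Pd7 effect minus the Pd3 effect on the log2 scale.

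Zona pellucida gene Zp2 had a difference of -2.308 (adjusted p = 0.0192) and Zp3 of -2.139 (adjusted p = 0.0428), with both genes above 0 at Pd3 and below 0 at Pd7. Pcp4, a calmodulin-binding protein gene, had the largest difference in size of the 9, at -3.316: it read 1.97, 3.62 and 2.53 in F1-HHcy and 15.2, 20.6 and 11.9 in F1-Control at Pd7, against 5.72, 12.8 and 4.34 and 3.06, 2.44 and 2.35 at Pd3. The oocyte and early embryo genes Dppa5a and Khdc1a had differences of -2.238 and -2.292, Smim41 of -2.343 and Gpc3, a cell surface proteoglycan gene, of -1.368. Serpina5 differed by 2.866: at Pd7 it read 8.41, 6.1 and 19.9 in F1-HHcy and 0, 0.0621 and 0.144 in F1-Control, and at Pd3 1.73, 0.0735 and 0.0127 and 0, 0 and 0. ND6, the mitochondrial gene on the strand opposite to the other protein genes, differed by 1.643, with 130.1, 143 and 82 against 61.5, 62.2 and 90.7 at Pd7 and 64.7, 74.9 and 85.5 against 161, 165 and 113 at Pd3. Dixon's test for a stray sample was not applied to these groups of 3 libraries.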

How the results depend on the processing

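None of the 1577 genes called at Pd7 changed direction under any alternative in which it was tested, and the calls differ mainly in number. Without a filter on low values 62 genes were higher and 29 lower, and 32 differed between the days; the cause was not tested. Calling genes at a raw p under 0.05 with a log2 difference over 0.58 either way, 1205 were higher and 978 lower. Leaving out 1 library gave 237 to 944 genes higher, 256 to 901 lower and 5 to 167 with a different effect at Pd7 than at Pd3. A pseudocount of 0.1, median-ratio scaling, 12 libraries in 1 model, limma-voom on recovered fragments and leaving out mitochondrial and hemoglobin genes kept both counts of calls within 1.5 times. Of 98 named genes called, 50 passed with every library left out and 45 missed the threshold without some library. The other 3, Serpina5, Cfd and Cdh16, reached the filter only through the group where they were high. They could be tested only with a library of the other group left out, and they passed in those 3 fits. Such fits are no check on the group that carries the call.

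A fit with a replicate block gave 955 higher and 919 lower, and 40 genes different between the days. Whether same-numbered libraries share more than a number is not known. F1-HHcy replicates 1 and 2 each deviated most like F1-Control replicate 1 and F1-HHcy replicate 3 most like F1-Control replicate 3, so not every library went best with its own number.

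For 26 named genes that were not called, the fold change changed sign when 1 library was left out, with these lowest and highest values: Serpine2 -0.18 and 0.33, Cyb5a -0.15 and 0.089, Hsd17b12 -0.15 and 0.048, Hsd17b4 -0.20 and 0.072, Prkar1a -0.094 and 0.032, Rps6 -0.23 and 0.080, Gdf9 -0.13 and 0.57, Mat2a -0.093 and 0.17, Shmt2 -0.22 and 0.085, Hspa5 -0.19 and 0.21, Atf4 -0.079 and 0.052, COX1 -0.091 and 0.23, Jund -0.41 and 0.11, Jun -0.37 and 0.98, Col6a1 -0.11 and 0.26, Sparc -0.11 and 0.0061, Nid1 -0.086 and 0.23, Mgp -0.19 and 0.15, Myl9 -0.18 and 0.18, Esam -0.17 and 0.035, Wt1 -0.25 and 0.14, Fabp4 -0.038 and 0.73, Car3 -0.79 and 0.066, Neb -0.39 and 0.066, Tnnt3 -0.49 and 0.025 and Foxo3 -0.26 and 0.050. Depth was 33630304 fragments or more in each library, with 3 libraries per diet.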

Other observations

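The gene groups below were drawn up after the values were seen, so their counts describe these libraries and support nothing else. Of 16 oogenesin and PRAME-like genes tested, which are expressed in oocytes, 13 rose in F1-HHcy and none fell, with a median of 1.88 at Pd7 and 2.09 at Pd3. Among the 13, Oog2 and Pramel23 reached the filter only through the F1-HHcy libraries, where they were high. Both were too low to test without any 1 of those libraries. Oog3 read 39.6, 31.2 and 45.2 FPKM in F1-HHcy and 0.68, 0.839 and 2.31 in F1-Control, and Pramel25 47.7, 34.7 and 50.2 against 3.43, 3.6 and 10.2. All 4 oocyte homeobox genes tested rose (median 1.76): Obox5 read 89.2, 74.1 and 60.3 against 22, 17.9 and 31.4 (1.63 ± 0.22). Of 9 Nlrp4 and Nlrp9 genes, 6 rose and 1, Nlrp4c, fell (-0.85). These are families of near-identical copies, and how the counting split shared reads is not given in the sources used here, so single members are uncertain.

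Imprinted growth genes went mostly the other way, with 6 falls and 1 rise among 20 tested (median -0.27). H19, a long non-coding RNA, read 70.1, 71.1 and 62.7 against 267, 274 and 123 (-1.6 ± 0.28), its neighbour Igf2, a fetal growth factor, 9.57, 10.1 and 7.07 against 34.7, 27.8 and 17.9 (-1.46 ± 0.23), and Dlk1 4.8, 5.85 and 2.03 against 20.8, 19.2 and 12 (-1.86 ± 0.30). The growth brake Cdkn1c also fell (-1.5 ± 0.21), and Nnat rose (0.87 ± 0.23). The Nnat call was lost with 5 of the 6 libraries left out (largest adjusted p = 0.115 in limma, without F1-Control replicate 2). In each of the falls named here the lowest F1-Control library was replicate 3.

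Lymphatic endothelial genes rose in 7 of 10 tested (median 1.11), Flt4, Lyve1 and Prox1 among them being in the endothelial list as well. The Prox1 call was lost with 5 of the 6 libraries left out (largest adjusted p = 0.178 in limma). The chemokine gene Ccl21a read 147, 142 and 132 against 16, 17.5 and 28.6 (2.74 ± 0.20, adjusted p = 0.000794) and Mmrn1 11.7, 9.95 and 9.36 against 1.11, 1.21 and 2.83 (2.11 ± 0.23). Of 7 renin-angiotensin genes, Ace (1.75 ± 0.29) and Agt (1.73 ± 0.37) rose and Atp6ap2 fell (-0.53 ± 0.15). Only the Ace call held with every library left out. The largest adjusted p in limma was 0.0879 for Agt, without F1-Control replicate 2, and 0.193 for Atp6ap2, without F1-HHcy replicate 2. Of 5 nuclear long non-coding RNAs, Malat1 read 510.3, 562 and 336 against 192, 29.4 and 156 (2.24 ± 0.58) and Neat1 8.21, 9.85 and 6.75 against 3.37, 1.22 and 3.48 (1.38 ± 0.27), with F1-Control replicate 2 lowest for both. The Malat1 call was lost without any 1 of the F1-HHcy libraries (largest adjusted p = 0.0931). Among 19 extracellular proteases and inhibitors 6 rose (median 0.093), with Plau, the urokinase gene, at 59.8, 72.3 and 52.5 against 20.5, 18.1 and 33 (1.365 ± 0.22). Serpina5, among the 6, was too low to test without any 1 of the F1-HHcy libraries. The Plau and Serpina3c calls held with every library left out, and those of Adamts5, Serpina3g and Prss23 did not.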
